A study of Canis lupus familiaris with 6 samples.

Results

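Ribosome biogenesis and RNA polymerase I genes were followed in MDCK cells, a canine kidney epithelial line, with PRL1 siRNA and with mutant alleles of the phosphatases PRL1 and PRL2. The set holds 40 genes listed by symbol, of 41401 symbols in the deposited tables, and all 40 were among the 12125 genes whose mean reached 1 FPKM (fragments per kilobase of transcript, scaled to the mapped fragments of the library) over the 6 libraries. PRL1 siRNA or control siRNA was given to PRL2-/-; PRL1+/- clone #1, to PRL2-/-; PRL1+/- clone #2 and to wild-type cells, with RNA extraction 18 h past the second round of transfection. Each combination of line and siRNA gave 1 library. Each mutant line is 1 clone and wild type is 1 line, the labels name neither the changes in the alleles nor separate cultures for the libraries of a line. The p-values therefore measure the spread between these lines and samples.

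Ribosomes are built in the nucleolus. RNA polymerase I, recruited by UBTF and RRN3, transcribes a long ribosomal RNA precursor. Small nucleolar ribonucleoproteins (snoRNPs) of the box C/D kind methylate it and those of the box H/ACA kind convert uridines to pseudouridine, while assembly factors cut, fold and dress it into the small and large subunits. Growing cells express these genes at high level and in parallel, and the transcription factor MYC is a known activator of many of them.

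The targeted gene checked the siRNA labels. PTP4A1, which encodes PRL1, was at 37.8 and 37.8 FPKM in the knockdown libraries of clones 1 and 2 and at 33.1 in that of wild type, against 61.7, 69.9 and 63.5 FPKM in their control libraries. It was thus lowered in part, to 61.2%, 54.1% and 52.1% of control in clone 1, clone 2 and wild type (-0.83 ± 0.05, limma, adjusted p = 0.00127). The genotype labels were not borne out by transcript level: under control siRNA PTP4A1 in the clones labelled PRL1+/- differed from wild type by 0.05 ± 0.10 (adjusted p = 0.873). PTP4A2, which encodes PRL2, was at 69.1 and 48.3 FPKM in the knockdown libraries of the clones labelled PRL2-/- and at 59.0 in that of wild type, against 80.4, 56.7 and 72.7 FPKM in their control libraries. A transcript can persist where its allele is disrupted, so these levels do not check the alleles, and genotype here is as labelled. PTP4A2 was also lower under PRL1 siRNA over the 3 lines (-0.25 ± 0.04, limma, adjusted p = 0.00572). It stood at 85.9%, 85.2% and 81.1% of control in clone 1, clone 2 and wild type, and the cause was not tested. FPKM values carry no absolute depth. Low values gave a depth of 0.768 to 0.914 of that of the wild-type control library in the other 5 libraries. The kidney and epithelial markers were present, with CDH1 at 84.7 to 158 FPKM, EPCAM at 272 to 358 and PAX8 at 42.9 to 78.1. Of the leukocyte markers PTPRC and CD3E were listed at 0 in every library and CD68 did not exceed 0.971 FPKM, and no fibroblast or endothelial marker exceeded PDGFRA at 0.409 and KDR at 1.18 FPKM. Of the 8 epithelial markers 5 fell and 2 rose under PRL1 siRNA over the 3 lines (limma, adjusted p under 0.05), against 21.7% of all tested genes lower and 17.6% higher. The 2 that rose were CDH16 (0.82 ± 0.10, adjusted p = 0.00316) and PAX8 (0.57 ± 0.05, adjusted p = 0.00166). The largest fall was that of OCLN (-0.24 ± 0.05, adjusted p = 0.0132). The part of these markers in the results was not tested. The wild-type libraries had less of some of these markers than the clones: summed over the 8, FPKM was 1563 and 1783 in the knockdown libraries of clones 1 and 2 against 1194 in that of wild type, and 1693 and 1856 in their control libraries against 1217.

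Under PRL1 siRNA most of the 40 genes were lower in all 3 lines. Of the 40, 31 fell, 0 rose and 9 did not pass when knockdown was compared with control within each line (limma on log2(FPKM + 1) with line as block, n = 3 pairs, adjusted p under 0.05 over all 12125 genes). Over all tested genes the same comparison called 21.7% lower and 17.6% higher. The median difference of the 40 genes was -0.26 log2 units, with single genes between -0.53 and 0.04, beside a median of -0.01 over all genes. Summed over the 40 genes, FPKM under PRL1 siRNA differed from that under control siRNA by -17.0% in clone 1, -18.04% in clone 2 and -20.1% in wild type. FPKM is a share of the sequenced RNA, so fewer cells with a transcript and less transcript per cell cannot be told apart.

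**Figure D1:**
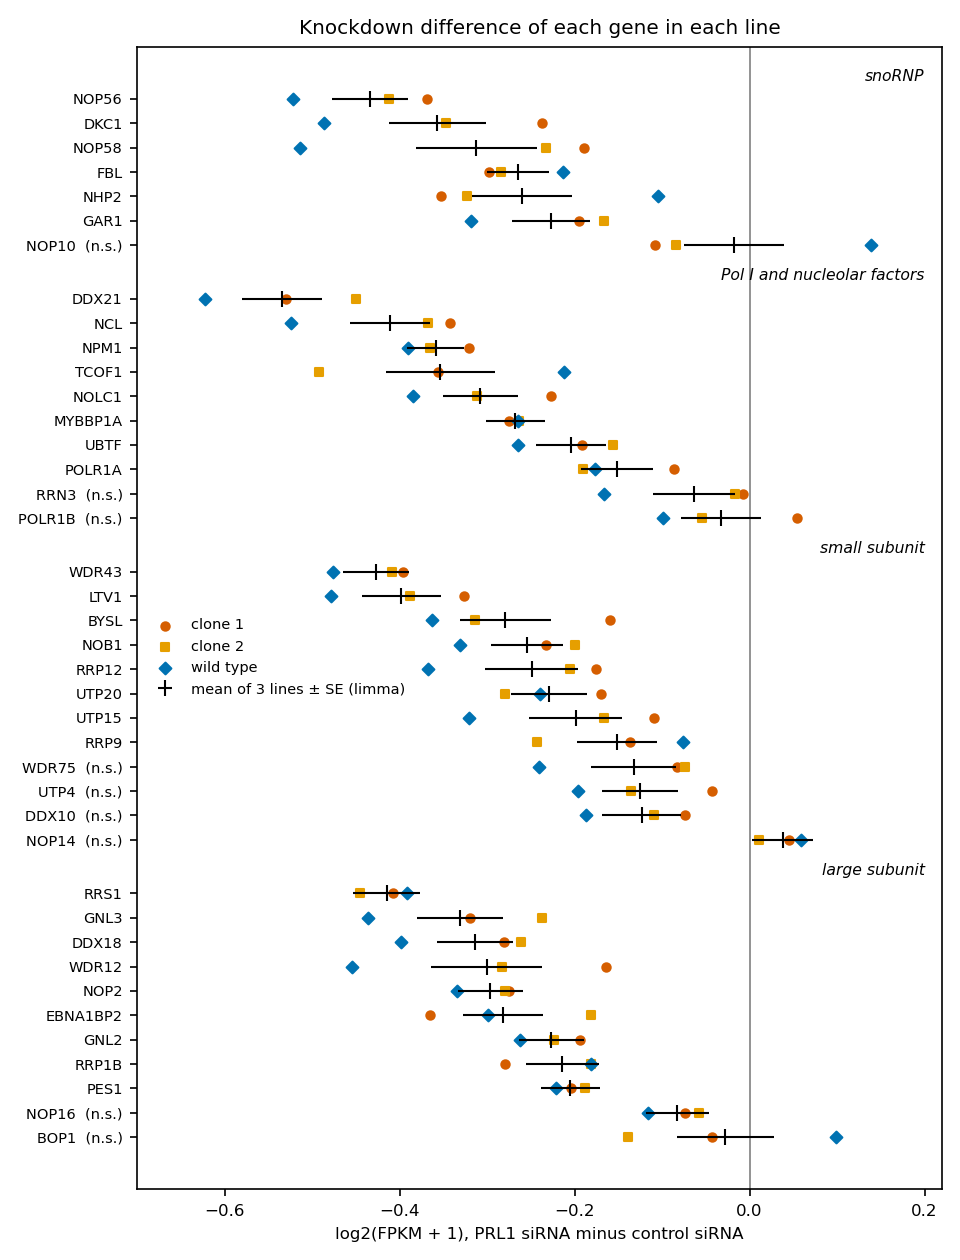
The horizontal axis gives the difference in log2(FPKM + 1) between PRL1 and control siRNA for each of the 40 genes (rows, by role); points stand for clone 1, clone 2 and wild type, black marks for the mean of the 3 lines with its SE, and n.s. for genes that did not pass (adjusted p of at least 0.05). The means run from -0.53 (DDX21) to 0.04 (NOP14), and 31 of 40 pass, all of them below 0.

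The count depends on the lines that enter it. With line as block, leaving out 1 library of a line also takes its partner out of the siRNA comparison. Removing the knockdown or the control library of a clone is thus the same check, which rests on the pairs of the other lines. Without the knockdown library of clone 1 it was 15 of 40, with 1721 of all genes called, and without its control library it was also 15, with 1723 called. Without the knockdown or the control library of clone 2 it was 21 of 40, with 2436 and 2450 genes called, and it was 11 of 40, with 1179 genes called, when all genes above 0 FPKM were tested. The median of the 40 genes lay between -0.26 and -0.22 in these alternatives. Direction can be read without a test: 36 of 40 genes were lower under PRL1 siRNA in each of the 3 lines, against 35.8% of all genes. NOP14 was the gene of the 40 that was higher in each, as were 31.6% of all genes.

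Core proteins of the snoRNPs fell in 6 of 7 cases. NOP56, a scaffold of box C/D particles, had 38.6 and 37.5 FPKM in the knockdown libraries of clones 1 and 2 and 26.0 in that of wild type, against 50.2, 50.2 and 37.8 FPKM in their control libraries. Every knockdown library lay below the control library of its own line, and NOP56 fell by 0.43 ± 0.04 log2 units (SE, n = 3 lines, limma, adjusted p = 0.00221). Its partner scaffold NOP58 was at 58.1, 53.9 and 37.0 FPKM after knockdown in clone 1, clone 2 and wild type, against 66.4, 63.5 and 53.3 FPKM under control siRNA (-0.31 ± 0.07, adjusted p = 0.0191). The wild-type difference of NOP58, at -0.51, was larger than those of the clones, at -0.19 and -0.23. FBL, the methyltransferase of these particles, was the most abundant of the 7, at 102 to 171 FPKM over the 6 libraries, and fell by 0.27 ± 0.04 (adjusted p = 0.00443).

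Box H/ACA proteins moved unequally. DKC1, the pseudouridine synthase, had 35.8, 35.0 and 22.3 FPKM in the knockdown libraries of clone 1, clone 2 and wild type, against 42.4, 44.8 and 31.6 FPKM in their controls, a fall of 0.36 ± 0.06 (adjusted p = 0.00674). GAR1 fell by 0.23 ± 0.04 (adjusted p = 0.0131). NHP2 fell by 0.26 ± 0.06 (adjusted p = 0.0184), with differences of -0.35 and -0.32 in the clones and -0.10 in wild type. The smallest protein of the complex, NOP10, did not pass (-0.02 ± 0.06, adjusted p = 0.824), being at 97.8 and 97.0 FPKM after knockdown in the clones against 106 and 103 under control siRNA, and at 94.9 FPKM in the wild-type knockdown library against 86.1 in the control.

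Among RNA polymerase I and nucleolar factors, 8 of 10 fell. The largest fall of all 40 genes was that of DDX21, an RNA helicase that binds ribosomal RNA precursors, at 24.3, 26.8 and 16.4 FPKM in the knockdown libraries of clone 1, clone 2 and wild type, against 35.6, 37.0 and 25.8 FPKM in the controls (-0.53 ± 0.05, limma, adjusted p = 0.00174). All 3 differences were at or beyond -0.45. NCL encodes nucleolin, an abundant RNA-binding protein of the nucleolus, and had 288, 272 and 189 FPKM after knockdown against 366, 351 and 273 FPKM (-0.41 ± 0.05, adjusted p = 0.00279). NPM1, which encodes the nucleolar scaffold and histone chaperone nucleophosmin, was the most abundant gene of the set, at 509.8, 494 and 387 FPKM after knockdown against 637, 637 and 507 FPKM under control siRNA (-0.36 ± 0.03, adjusted p = 0.00189). In the RefSeq annotation a pseudogene overlaps the span of NPM1, and the same holds for POLR1B, WDR43 and DDX10. The treatment of such overlaps in the counting is not given in the sources used here, which makes the levels of these 4 genes uncertain. More widely, 18 of the 40 genes overlap another annotated gene, and the strand setting of the counting is not stated, so fragments of such pairs could be shared.

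TCOF1, which encodes treacle, a scaffold that binds UBTF and the polymerase, fell by 0.35 ± 0.06 (adjusted p = 0.00989), and NOLC1, its paralog that also chaperones snoRNPs, fell by 0.31 ± 0.04 (adjusted p = 0.00493). MYBBP1A, a nucleolar regulator of ribosomal RNA synthesis, had nearly the same difference in clone 1, clone 2 and wild type, at -0.28, -0.26 and -0.27, and fell by 0.27 ± 0.03 (adjusted p = 0.00385).

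The differences of the polymerase and its recruiting factors were the smallest of the 10. UBTF, which binds the ribosomal gene promoter, fell by 0.20 ± 0.04 (adjusted p = 0.0127), and POLR1A, the largest subunit, fell by 0.15 ± 0.04 (adjusted p = 0.0352). POLR1B, the next largest subunit, did not pass (-0.03 ± 0.05, adjusted p = 0.595); it had 19.2, 19.6 and 14.0 FPKM in the knockdown libraries of clone 1, clone 2 and wild type, against 18.4, 20.4 and 15.0 FPKM in their controls. RRN3, the initiation factor that joins the polymerase to the promoter complex, did not pass either (-0.06 ± 0.05, adjusted p = 0.325). It stood at 22.5, 22.7 and 16.9 FPKM after knockdown, against 22.6, 22.9 and 19.1 FPKM under control siRNA, which made differences of -0.01 and -0.02 log2 units in the clones and -0.17 in wild type.

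**Figure D2:**
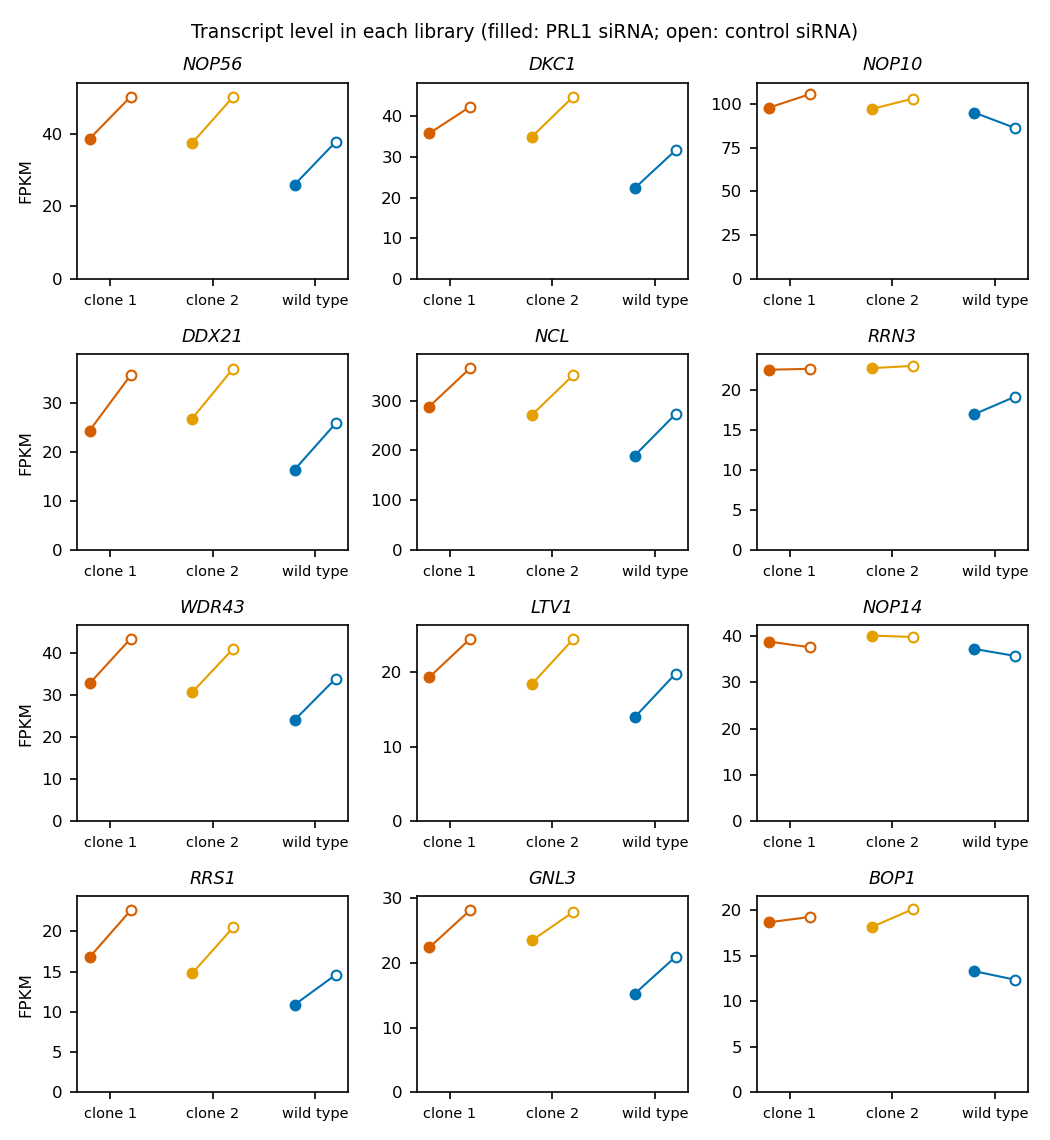
Panels give the FPKM of 12 genes (vertical axes start at 0) in clone 1, clone 2 and wild type, with PRL1 siRNA as filled and control siRNA as open points joined within a line. DDX21, NCL, NOP56 and RRS1 are lower under PRL1 siRNA in each line and lowest in the wild-type knockdown library, whereas NOP14 is nearly level and RRN3 is nearly level in the clones.

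Factors of the small subunit fell in 8 of 12 cases. WDR43, a component of the early processome that folds the small subunit RNA, had 32.8, 30.7 and 24.1 FPKM in the knockdown libraries of clone 1, clone 2 and wild type, against 43.5, 41.1 and 34.0 FPKM in their controls (-0.43 ± 0.04, limma, adjusted p = 0.00175). LTV1, which assists late maturation and export, was at 19.4, 18.4 and 13.9 FPKM after knockdown and at 24.5, 24.4 and 19.8 FPKM under control siRNA (-0.40 ± 0.04, adjusted p = 0.00284). In both genes each knockdown library was below the control library of its own line. BYSL, which encodes bystin, had 15.3, 14.95 and 10.5 FPKM after knockdown against 17.2, 18.8 and 13.85 FPKM (-0.28 ± 0.05, adjusted p = 0.0116). NOB1, the nuclease that makes the last cut of the small subunit RNA, fell by 0.25 ± 0.04 (adjusted p = 0.00775), and the export factor gene RRP12 fell by 0.25 ± 0.05 (adjusted p = 0.017).

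UTP20, a scaffold of the processome, and UTP15 and RRP9, further proteins of it, had smaller differences. UTP20, UTP15 and RRP9 fell by 0.23, 0.20 and 0.15 log2 units (adjusted p = 0.0118, 0.0328 and 0.0464). WDR75 did not pass (-0.13 ± 0.05, adjusted p = 0.0792), with 20.1, 19.5 and 15.5 FPKM after knockdown in clone 1, clone 2 and wild type against 21.4, 20.6 and 18.5 FPKM under control siRNA. UTP4, like WDR75 a protein of the early processome, had 37.8, 39.0 and 25.1 FPKM after knockdown against 38.95, 42.95 and 28.9 FPKM (-0.13 ± 0.04, adjusted p = 0.0688). The helicase gene DDX10 had 9.69, 9.41 and 7.85 FPKM after knockdown against 10.3, 10.2 and 9.07 FPKM (-0.12 ± 0.04, adjusted p = 0.0772). Each of these genes was lower after knockdown in all 3 lines without passing. NOP14, a processome scaffold, was the exception in direction, at 38.7, 40.04 and 37.2 FPKM after knockdown in clone 1, clone 2 and wild type against 37.5, 39.7 and 35.6 FPKM under control siRNA (0.04 ± 0.04, adjusted p = 0.421).

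Factors of the large subunit fell in 9 of 11 cases. RRS1, needed to bring a ribosomal protein and RNA complex into the early particle, had 16.8, 14.8 and 10.9 FPKM in the knockdown libraries of clone 1, clone 2 and wild type, against 22.6, 20.5 and 14.6 FPKM in their controls (-0.41 ± 0.04, limma, adjusted p = 0.00191). GNL3, which encodes nucleostemin, a nucleolar GTPase, was at 22.4, 23.5 and 15.2 FPKM after knockdown and at 28.2, 27.9 and 21.0 FPKM under control siRNA (-0.33 ± 0.05, adjusted p = 0.00615). The helicase gene DDX18 had 32.5, 31.35 and 23.7 FPKM against 39.7, 37.8 and 31.6 FPKM (-0.31 ± 0.04, adjusted p = 0.00473). In all of these genes every knockdown library was below the control library of its own line.

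The complex of PES1, BOP1 and WDR12, which processes the large subunit RNA, did not fall as a whole. WDR12 fell by 0.30 ± 0.06 and PES1 fell by 0.21 ± 0.03 (adjusted p = 0.0162 and 0.00794). BOP1 did not pass (-0.03 ± 0.06, adjusted p = 0.717), with 18.7, 18.2 and 13.3 FPKM after knockdown in clone 1, clone 2 and wild type against 19.3, 20.1 and 12.4 FPKM under control siRNA. NOP2, a methyltransferase of the large subunit RNA, fell by 0.30 ± 0.04 (adjusted p = 0.00397), the scaffold gene EBNA1BP2 by 0.28 ± 0.05 (adjusted p = 0.00794), the GTPase gene GNL2 by 0.23 ± 0.04 (adjusted p = 0.00817) and RRP1B by 0.21 ± 0.04 (adjusted p = 0.0132). NOP16 did not pass (-0.08 ± 0.04, adjusted p = 0.118), with 38.05, 40.2 and 29.4 FPKM after knockdown against 40.1, 41.8 and 31.9 FPKM under control siRNA.

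**Figure D3:**
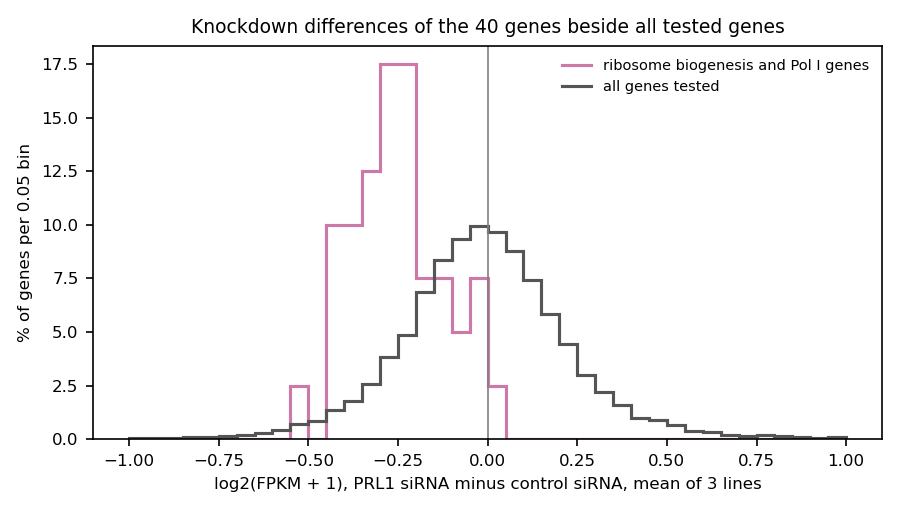
Outlines give the percentage of genes in each bin of 0.05 log2 units of the mean knockdown difference over 3 lines, for the 40 genes and for all 12125 tested genes as far as they lie between -1 and 1. The 40 genes centre on -0.26 and all genes on -0.01, and the outlines overlap.

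Within single lines most genes were also lower. In clones 1 and 2, 38 and 39 of the 40 genes, and in wild type 37, were lower under PRL1 siRNA, with medians of -0.20 in clone 1, -0.24 in clone 2 and -0.28 in wild type. Over all genes 52.3% were lower in clone 1, 53.6% in clone 2 and 50.7% in wild type. The single wild-type pair was described without a test. DDX21 was the gene of the 40 that was lower by at least 1.5-fold there, as were 1.59% of all genes. When the knockdown effect was estimated from the 2 clones alone, 29 of the 40 genes fell and 0 rose (limma with clone as block, n = 2 pairs), beside 19.2% of all genes called lower and 14.5% higher. The fit has 1 residual degree of freedom. Without the block 0 genes passed, with 2575 of all genes at an unadjusted p under 0.05, and 0 also passed when all genes above 0 FPKM were tested, with 6129 of 27931 at an unadjusted p under 0.05.

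The size of the effect was set against genotype directly. The knockdown effect in the clones minus that in wild type had a median of 0.09 over the 40 genes, and the test of this difference called 0 of the 40 (limma, smallest adjusted p = 0.454). Over all genes it called 1 of 12125, or 0.00825% higher and 0% lower. At an unadjusted p under 0.05, 2 of the 40 genes were lower and 2 higher, beside 6.25% and 3.88% of all genes. The largest such differences among the snoRNP genes were in NOP58 (0.30, unadjusted p = 0.00618), NHP2 (-0.23, unadjusted p = 0.0135) and NOP10 (-0.24, unadjusted p = 0.0118). A p that misses the threshold does not show equal effects.

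Both mutant clones stood above wild type under either siRNA, without passing the test. All 40 genes were above wild type in both clones under PRL1 siRNA, as were 42.9% of all genes, and all 40 were likewise above it under control siRNA, as were 43.6% of all genes. The median difference between clones and wild type was 0.41 log2 units under PRL1 siRNA, with a range of 0.04 to 0.64, and 0.34 under control siRNA, with a range of 0.08 to 0.63. Over all genes these medians were 0.03 and 0.03. Summed FPKM of the 40 genes was higher in clones 1 and 2 than in wild type by 33.9% and 29.6% under PRL1 siRNA and by 28.9% and 26.4% under control siRNA.

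None of these differences passed over all genes. Under PRL1 siRNA the smallest adjusted p of the 40 was 0.219, and 0 of 12125 genes passed in a 4-group limma fit without a line term (0% higher and 0% lower; n = 2 clones and 1 wild-type line). At an unadjusted p under 0.05, 32 of the 40 genes were higher and 0 lower, beside 9.65% and 5.18% of all genes. Under control siRNA the smallest adjusted p was 0.245 and 0 of 12125 genes passed (0% higher and 0% lower), with 31 of the 40 higher and 0 lower at an unadjusted p under 0.05, beside 9.39% and 4.07% of all genes. The 4-group fit counts the 2 libraries of a clone as independent, though they deviated together (r = 0.595 across genes). Its p-values thus take the spread as better known than it is, and the spread of wild type was not measured. The deposited totals also differed: summed over all genes, FPKM was higher in clones 1 and 2 than in wild type by 5.99% and 5.92% under PRL1 siRNA and by 7.89% and 8.56% under control siRNA. With all libraries set to the same total, which put the median of all genes at -0.07 under control siRNA, the median of the 40 genes was 0.33 under PRL1 siRNA and 0.22 under control siRNA. On that scale 34 of the 40 were above wild type in both clones under PRL1 siRNA, against 29% of all genes, and 36 under control siRNA, against 24.6%. Some epithelial markers moved alongside in the values as deposited. Of the 8, 5 were above wild type in both clones under PRL1 siRNA, against 42.9% of all genes, and 6 under control siRNA, against 43.6%. Their medians were 0.30 and 0.25, and 0 passed. Of these, named after their values were seen, KRT18 differed by 0.82 and 0.96, CDH1 by 0.66 and 0.64 and KRT8 by 0.58 and 0.57 under PRL1 and control siRNA. PAX8, at -0.20 and -0.04, and TJP1, at -0.13 and -0.11, went the other way. The part of these markers in the difference of the 40 genes was not tested.

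Under control siRNA the 3 largest differences were those of large subunit factors, while under PRL1 siRNA they were those of DKC1 (0.64), EBNA1BP2 (0.62) and DDX21 (0.61). BOP1 had 19.3 and 20.1 FPKM in the control libraries of clones 1 and 2, against 12.4 FPKM in that of wild type, a log2 difference of 0.63 ± 0.07 (SE, limma, adjusted p = 0.245). EBNA1BP2 had 71.1 and 59.5 FPKM in the same clones against 42.7 FPKM for wild type (0.59 ± 0.13, adjusted p = 0.285); in the knockdown libraries it had 54.97 and 52.3 FPKM against 34.6. In the control libraries RRS1 had 22.6 and 20.5 FPKM in clones 1 and 2 against 14.6 in wild type (0.53 ± 0.12, adjusted p = 0.285). In each of these genes both clones lay above wild type by at least 0.46 log2 units under control siRNA. MYBBP1A was at 56.6 FPKM in clone 1 and 54.9 in clone 2 against 39.0 in wild type (0.50 ± 0.07, adjusted p = 0.245), and in the knockdown libraries at 46.6 and 45.6 against 32.3. In the control libraries UTP4 was at 38.95 and 42.95 FPKM for clones 1 and 2 against 28.9 for wild type (0.49 ± 0.09, adjusted p = 0.256).

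The smallest difference was that of UTP20. It was at 12.5 FPKM in both clones against 11.7 in wild type under control siRNA (0.08 ± 0.08, adjusted p = 0.715), and with equal totals it was at -0.02. PES1 was unequal in the clones under control siRNA, with 64.4 FPKM in clone 1 and 54.4 in clone 2, against 53.2 in wild type. These lay 0.27 and 0.03 log2 units above wild type, each from 1 library. EBNA1BP2 was unequal too, at 0.72 and 0.47 above wild type. Under PRL1 siRNA the difference was smallest for NOP10, at 97.8 FPKM in clone 1 and 97.0 in clone 2 against 94.9 in wild type, and was 0.09 for NHP2, at 65.2 and 67.6 FPKM against 62.1. Median-centring put NOP10 below wild type in at least 1 clone under PRL1 siRNA and left the other 39 genes above it in both.

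**Figure D4:**
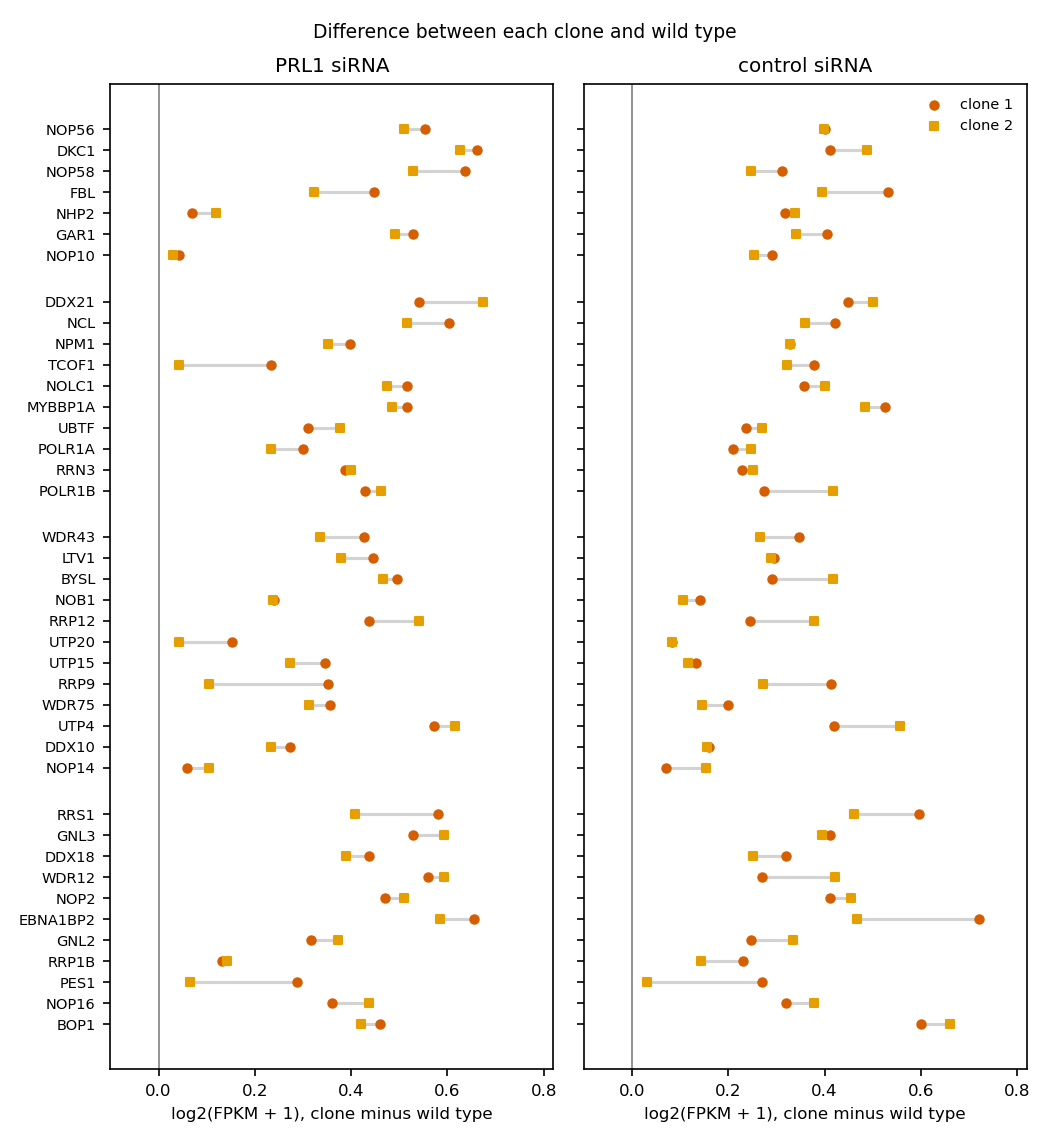
The horizontal axes give the difference in log2(FPKM + 1) between each clone and wild type for the 40 genes (rows, by role), under PRL1 siRNA (left) and control siRNA (right). Both points of all 40 genes lie above 0 in both panels, with medians of 0.41 and 0.34, and none of the 40 genes passes in either comparison.

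The wild-type knockdown library was the lowest of the 6 for 37 of the 40 genes, as it was for 24.5% of all genes, and a control library of a clone was the highest for 39 of the 40, as for 38% of all genes. The count at the low end follows from those above, that at the high end follows for nearly all genes, and neither is a further result. All 40 genes were above wild type in both clones under either siRNA. Under PRL1 siRNA 37 were lower in wild type, 38 in clone 1 and 39 in clone 2. The exceptions at the low end were NOP10, NOP14 and BOP1, and the exception at the high end was NOP14. Summed FPKM of the 40 genes was 2084 in the knockdown library of clone 1 against 2510 in its control, 2017 against 2461 in clone 2 and 1556 against 1947 in wild type. Set against the wild-type control library, the knockdown libraries of clones 1 and 2 had medians of 0.11 and 0.08 log2 units over the 40 genes, with ranges of -0.09 to 0.56 and -0.20 to 0.52. Within 0.25 of it were 34 and 35 of the 40 genes, beside 66.6% and 59.1% of all genes. These 2 comparisons cross genotype and siRNA and use the control library of wild type that the other comparisons also use.

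In vertebrates many snoRNAs are cut from introns of protein-coding transcripts, and some of the host genes encode nucleolar proteins. In the RefSeq annotation (assembly UU_Cfam_GSD_1.0, used for names and neighbours only, all 40 symbols matched), 6 of the 40 genes, or 15%, had at least 1 snoRNA gene within their span, against 1.54% of 11011 tested coding genes. NOP56 held 5, NOP58 4, NCL 3, GNL3 3, DKC1 2 and WDR43 2. All 6 fell under PRL1 siRNA, with a median of -0.38, whereas 25 of the other 34 fell, with a median of -0.23. Beyond the 40 genes, 164 tested coding genes held a snoRNA gene. Other genes of ribosome assembly were not taken out of this group. Of the 164, 70 (42.7%) were called lower, with a median of -0.11. Among 10807 genes without a snoRNA gene 22.3% were called lower, with a median of -0.01. The part of the snoRNA genes in these differences was not tested.

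Other genes of the pathway, listed with earlier results of these data known, were also lower. Of 116 further genes of RNA polymerase I, subunit assembly and the RNA exosome, all tested, 68 fell, 0 rose and 48 did not pass under PRL1 siRNA (limma over 3 lines), with a median of -0.18. Over all tested genes 21.7% were called lower and 17.6% higher. Of the large subunit factors 30 of 49 fell, of the small subunit factors 24 of 43, of the RNA polymerase I genes 7 of 11 and of the exosome genes 7 of 13. Under control siRNA 100 of the 116 were above wild type in both clones, against 43.6% of all genes. Their median difference was 0.22, and 0 passed.

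In the large subunit list RRP15, MAK16, NMD3 and RBM28 fell most. MAK16, an early assembly factor, had 35.8, 32.9 and 29.6 FPKM in the knockdown libraries of clone 1, clone 2 and wild type, against 53.4, 49.8 and 44.6 FPKM in their controls (-0.57 ± 0.03, adjusted p = 0.00127). NMD3, the adaptor that exports the large subunit from the nucleus, fell by 0.47 ± 0.04 (adjusted p = 0.00174). RRP15 fell by 0.58 ± 0.05 and RBM28 by 0.45 ± 0.04. In the small subunit list ABT1 fell by 0.58 ± 0.04, NOC4L by 0.49 ± 0.04, UTP11 by 0.40 ± 0.04 and NOL11 by 0.32 ± 0.04. Of the exosome, which trims ribosomal RNA precursors, EXOSC8 fell by 0.55 ± 0.06, the nuclease gene DIS3 by 0.40 ± 0.05, MPHOSPH6 by 0.33 ± 0.05 and EXOSC2 by 0.31 ± 0.05.

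Among the further polymerase genes POLR1F, a subunit of the stalk, had 23.6, 20.9 and 18.02 FPKM in the knockdown libraries of clone 1, clone 2 and wild type, against 29.65, 27.6 and 24.0 FPKM in the controls (-0.37 ± 0.04, adjusted p = 0.00246). POLR1G, a further subunit gene, fell by 0.33 ± 0.05, and the promoter selectivity factor genes TAF1B and TAF1C fell by 0.25 ± 0.05 and 0.22 ± 0.06. POLR1C and POLR1D, subunits shared with RNA polymerase III, were at -0.06 and -0.10 and did not pass (adjusted p = 0.448 and 0.162); both were named after their values were seen.

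**Figure D5:**
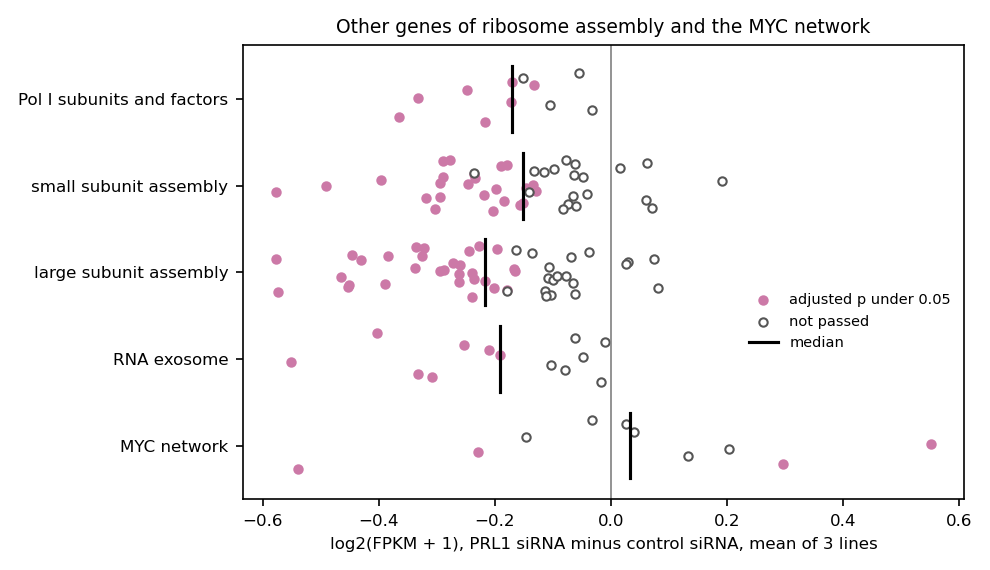
Each point is a gene of a related list, placed by its mean knockdown difference in log2(FPKM + 1) over the 3 lines; filled points pass (adjusted p under 0.05), open points do not, and bars mark medians. The 4 assembly and polymerase lists have no filled point above 0, while the MYC network has filled points on both sides.

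MYC was likewise lowest in the wild-type knockdown library and highest in a control library of a clone. Its transcript was at 35.1, 45.2 and 21.3 FPKM in the knockdown libraries of clone 1, clone 2 and wild type, against 50.7, 64.2 and 32.9 FPKM in their controls. MYC fell by 0.54 ± 0.04 (limma, adjusted p = 0.00147) and was above wild type in both clones, by 0.77 ± 0.22 under control siRNA (adjusted p = 0.32). MXD1 and MNT encode antagonists that share its partner MAX. MXD1 had 1.65, 2.07 and 2.35 FPKM after knockdown against 0.865, 1.16 and 1.14 FPKM under control siRNA, and rose by 0.55 ± 0.07 (adjusted p = 0.0047), and MNT rose by 0.30 ± 0.06 (adjusted p = 0.0139). MGA fell by 0.23 ± 0.05 (adjusted p = 0.0155). Of the other genes of this list, MAX was at -0.03, MXI1 at -0.15, MXD3 at 0.03, MXD4 at 0.13, MYCL at 0.20 and MLX at 0.04, none of which passed, and MYCN was listed at 0 in every library. Whether the levels of MYC bear on the other genes was not tested.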

How the data were processed

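Gene-level FPKM were deposited by the authors as 1 table per library. Tools named in the submitters' processing notes are Cufflinks 2.2.1, Cuffdiff and the aligner HISAT2 2.1.0. The library kit is stranded per the labels' protocols, but no label or file header names the build, the annotation or the strand setting of the counting. FPKM are not counts, so no count model was run and the depth is unknown.

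Values were transformed as log2(FPKM + 1), which understates changes of low genes, and genes averaging 1 FPKM or more over the libraries were kept. Fits used limma 3.58.1 in R 4.3.3 with an intensity trend, moderated variances and Benjamini-Hochberg adjustment over all 12125 genes at 0.05. Knockdown was fitted with line as block (over 3 lines 2 residual and 3.58 prior degrees of freedom; with a separate wild-type effect 1 residual and 3.23 prior). Clones were set against wild type in a 4-group model, where the lone wild-type libraries were assumed to vary like the clones. The labels name the line of each library, so the pairing comes from the design, and same-clone libraries deviated together (r = 0.595 across genes, which are not independent). The knockdown fit over the 3 lines was tested on simulated data with known changes. For the difference in knockdown effect and for the 4-group model only the arithmetic of the estimates was checked, and their error rates were not examined.

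The 40 genes and the related lists were chosen with earlier results of these data known. Values in every library are given for the 3 genes with the largest knockdown difference in each role, the 5 with the largest difference between clones and wild type, and genes that did not follow their role; of each related list up to 4 genes with the largest differences were named. No promoter or protein sequences were used here. Alternatives covered the pseudocount, the filter, the scaling, the trend, the block and leaving out each library.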

Additional observations from a re-analysis of the deposited data

Results flagged for a closer look

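NOP10 and BOP1 differed in the direction of the knockdown difference between genotypes. NOP10 under PRL1 siRNA minus control siRNA was at -0.11 and -0.08 log2 units in the clones and at 0.14 in wild type. BOP1 was at -0.04 and -0.14 in the clones and at 0.10 in wild type. Neither difference passed the test of clones minus wild type (limma with line as block, adjusted p = 0.471 for NOP10 and 0.502 for BOP1), and the wild-type value rests on 1 pair of libraries.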

How the results depend on the processing

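The median of the 40 genes kept its sign in every comparison and alternative run, and 0 of the 40 rose under PRL1 siRNA in any of them. For PRL1 siRNA over the 3 lines, with 31 falls and 4762 genes called, no filter on low values gave 11 falls and 1179 genes, and the fit without the replicate block gave 22 falls and 1710 genes. Leaving out each library gave 15 to 29 falls and 1721 to 4095 genes; either clone 1 library gave 15. In the 2 clones the fit without the replicate block and the test with no filter gave 0 falls and 0 genes, and no trend gave 19 falls. The median in the 2 clones was -0.19 with median-centring, -0.20 with equal totals and -0.25 to -0.22 without 1 library. In the 2 clones the fits without 1 library also had no replicate block, so their counts cannot show what leaving out a library does. Over the 3 lines the fits without 1 library kept line as block, so each took a whole pair out of the comparison. Equal totals, and leaving out libraries from the interaction, were chosen after seeing the data.

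For clones minus wild type in the knockdown effect, 2 genes passed with a pseudocount of 0.1, 0 with no filter, 3 at a mean of at least 5 FPKM, 13 with median-centring, 7 with no trend, and 0 without the replicate block. None was among the 40, whose median was 0.12 with equal totals. Fits without 1 mutant library again had no replicate block, and put the median of the 40 at 0.08 to 0.10. For clones against wild type, no filter called 240 genes under PRL1 siRNA and 165 under control siRNA, and no trend 4 under control siRNA, none among the 40. The median under PRL1 siRNA was 0.33 with equal totals and 0.39 to 0.43 without 1 library; under control siRNA it was 0.30 with median-centring, 0.22 with equal totals and 0.32 to 0.34 without 1 library. The replicate block, with 1 mean per line, gave 0.36.

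Signs near 0 were unstable. NOP10 was at 0.010 with median-centring, 0.0022 with equal totals and -0.097 to 0.027 without 1 library; BOP1 at 0.00058 with median-centring and -0.091 to 0.028 without 1 library; POLR1B at -0.077 to 0.00036 without 1 library; and UTP20, clones minus wild type, at -0.022 with equal totals. The cause of these changes was not tested. The lowest value among the 40 genes was 7.41 FPKM, and FPKM gives no counting error. With 1 wild-type library per siRNA, clones could not be compared with wild type without that library.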
